A study of Mus musculus with 6 samples.

Results

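The genes described here were those that lay clearly higher in Dnmt3a knockout (KO) than in wild-type (WT) ectopic endometriosis lesions of mice by a fixed rule on their CPM (the count of a gene divided by the total of its library and multiplied by 1000000). A gene was kept when its lowest KO value was at least 2 times its highest WT value and its mean KO value was at least 2 CPM. The rule kept 65 of 56884 genes, which is 0.114% of all genes in the table and 0.474% of the 13719 genes with a mean KO value of at least 2 CPM. The members were thus chosen by the CPM values of all 6 libraries, and their KO to WT differences are a description with no test.

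Bulk RNA sequencing was performed on 3 WT and 3 KO ectopic lesions, each lesion being 1 library. Uterine tissue of Dnmt3a f/f female donors, 8 weeks old, gave the WT lesions, and uterine tissue of Dnmt3a f/f:PR Cre/+ donors of the same age gave the KO lesions, so both groups carry the floxed allele. In the KO donors Cre recombinase is expressed from the progesterone receptor locus. Graft cells in which Cre was never expressed and all cells of the host keep an intact Dnmt3a. The paper reported that DNMT3A staining was absent from epithelial and stromal cells of KO lesions, and the extent of deletion was not measured in these libraries. Both groups grew in the peritoneal cavity of wild-type recipients given estrogen pellets and carry a time of 4 weeks in their labels. The labels describe injected fragments, and the methods of the study describe an implanted fragment of each donor and an earlier day of collection.

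DNMT3A is a DNA methyltransferase that adds methyl groups to cytosines in CpG dinucleotides that carry none, and methylation of CpG-rich promoters goes with low transcription in many tissues. The endometrium holds secretory epithelium, stroma and a few ciliated epithelial cells, whose motile cilia are built under the control of the transcription factors FOXJ1 and RFX. Sex steroids, retinoic acid and ligands of the BMP family are known regulators of this tissue.

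The targeted gene was lower in KO lesions. Dnmt3a was at 50.1, 43.0 and 48.9 CPM in WT replicates 1, 2 and 3 and at 30.2, 35.1 and 37.8 CPM in KO replicates 1, 2 and 3, with a log2 fold change of -0.57 ± 0.14 (SE, n = 3 per group, Benjamini-Hochberg adjusted p = 0.321 by the quasi-likelihood test of edgeR). The libraries held 45370342 to 57239184 counts. WT replicates 1 and 3 stood apart by skeletal muscle genes, whose 17 markers summed to 39684 and 41257 CPM there, to 9.98 CPM in WT replicate 2 and to between 14.4 and 19.9 CPM in KO lesions. WT replicate 3 also held pancreas genes, whose 14 markers summed to 6496 CPM there and to at most 16.9 CPM elsewhere. WT replicate 2 had the highest sum of 18 markers of B and plasma cells, 3621 CPM against at most 1251 CPM elsewhere, and KO replicate 3 that of 16 adipocyte markers, 11997 CPM against at most 7081 CPM. KO replicate 2 stood apart by ciliated and oviduct genes, described below beside the members that moved with them. Epithelial markers of the endometrium were high in every library, with summed levels of 20 genes between 18479.9 and 53706 CPM.

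The 65 members fell into a pair of sets that differed in how evenly the KO lesions shared the increase. In the first set, 38 members had counts in at least 1 WT lesion and in every KO lesion. In the second set, 27 members had no count in any WT lesion and were highest in KO replicate 2 in all 27 cases. Of those 27, 22 also had no count in at least 1 KO lesion and entered because 0 is at least 2 times 0, and 16 had counts in KO replicate 2 alone. For these 22 genes the data go against the description that they were higher in every KO lesion, which holds for 43 of the 65 members.

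The members just inside the limit on the gap were D030007L05Rik, Veph1 and Gm19935, with a lowest KO value of 2.00, 2.03 and 2.04 times the highest WT value. Outside it were Syt13 and Utf1, at 1.98 and 1.97 times. The members just inside the limit on the level were Fam166b, 3300002A11Rik and 1700001C02Rik, with mean KO values of 2.05, 2.08 and 2.15 CPM, and Atp4a, Gm7361 and Cyp2d10 lay just outside at 1.99, 1.96 and 1.93 CPM. A gap of any size between the groups, every KO lesion above every WT lesion, was seen in 22.3% of the 13719 genes with a mean KO value of at least 2 CPM.

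In the 38 members detected in WT lesions, the lowest KO value was 2.00 to 4.31 times the highest WT value (median 2.39), and the ratio of the group means ran from 2.67 to 178 (median 5.83). Their summed level was 180 CPM in WT replicate 1, 143 CPM in WT replicate 2 and 142 CPM in WT replicate 3, against 870.4 CPM in KO replicate 1, 1084 CPM in KO replicate 2 and 474 CPM in KO replicate 3. KO replicate 1 held the highest value of 20 members and KO replicate 2 that of 18, while KO replicate 3 held the lowest KO value of 31. Of the 13719 genes with a mean KO value of at least 2 CPM, 40.9% had their lowest KO value in KO replicate 3. The 3 KO lesions lay within 2-fold of each other for 13 of these members and more than 5-fold apart for 7.

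**Figure D1:**
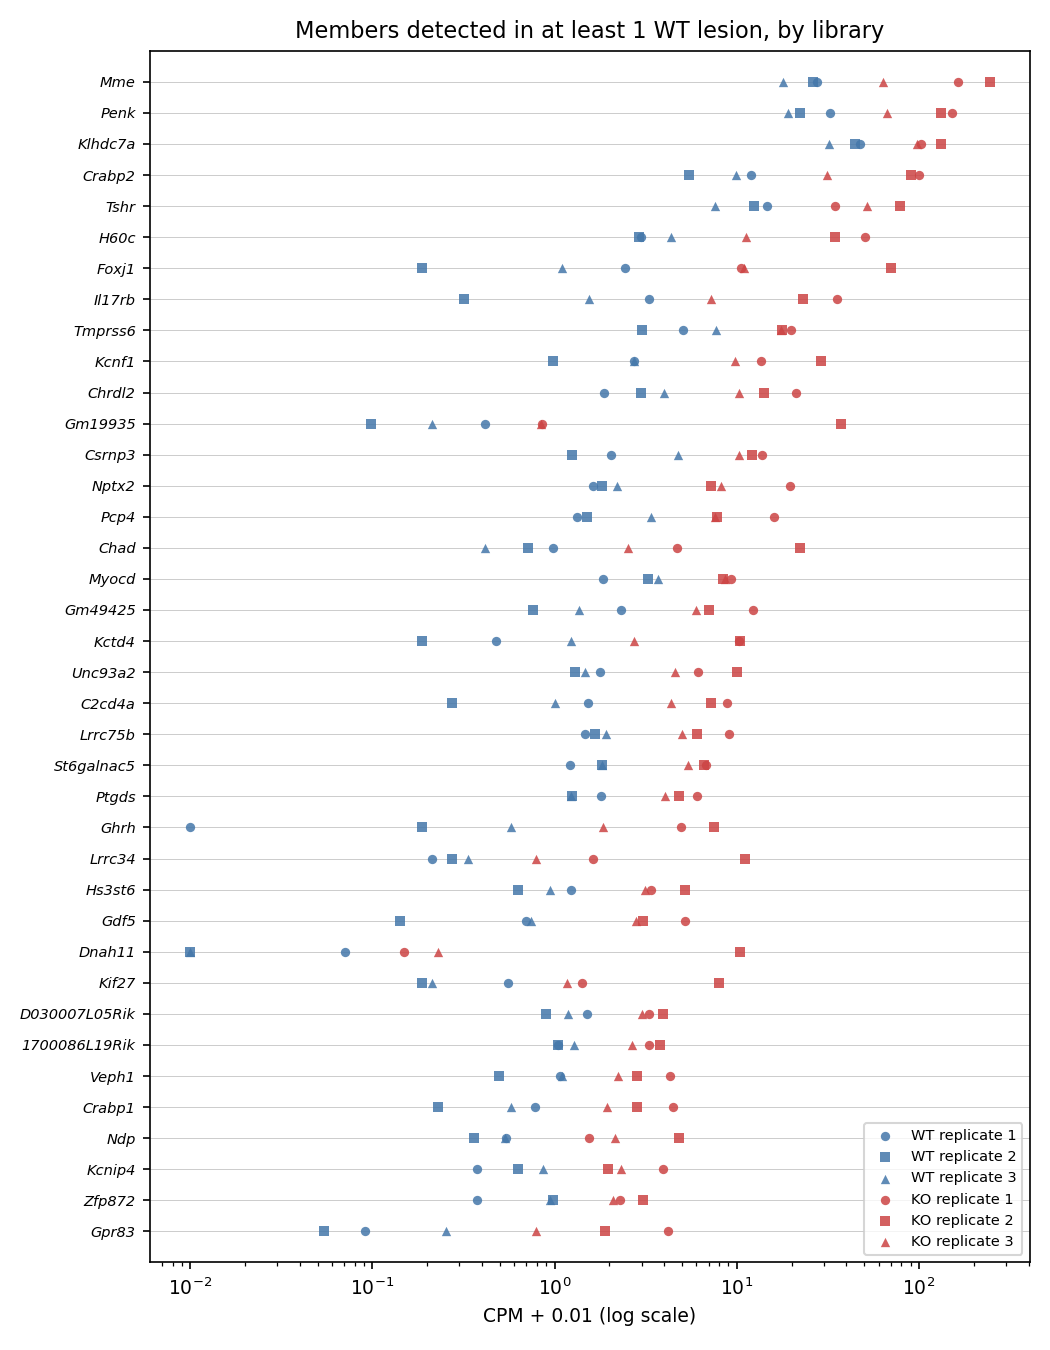
Level of the 38 members detected in WT lesions, as CPM plus 0.01 on a log axis, with 1 row for each gene and 1 point for each library (blue, WT; red, KO; circle, square and triangle for replicates 1, 2 and 3). The groups are separate in every row because the rule required it, and a red square far to the right of the other red points marks genes such as Gm19935, Dnah11 and Foxj1 that were far higher in KO replicate 2 than in the other KO lesions.

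Several secreted factors belonged to this set. Penk encodes proenkephalin, the precursor of the enkephalin opioid peptides, and had the highest level per length in the set, with a KO mean of 71.5 CPM per kilobase of exon. It was at 32.3, 22.1 and 19.09 CPM in WT replicates 1 to 3 and at 152, 132 and 66.8 CPM in KO replicates 1 to 3, which is 4.77 times the WT mean. Every KO lesion held more than 2 times the Penk level of the highest WT lesion, and KO replicate 3 was the lowest of the KO lesions.

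Mme encodes neprilysin, a cell surface peptidase that cleaves enkephalins and is a known marker of endometrial stroma. Its level was 27.5, 26.1 and 18.0 CPM across the WT lesions, compared with 163, 245 and 63.3 CPM across the KO lesions, a ratio of means of 6.59. As with Penk, the 3 WT lesions were close together and the KO lesions spread 3.86-fold, with KO replicate 3 lowest. The summed level of 17 other markers of endometrial stroma overlapped between the groups, at 8075, 10534 and 8640 CPM in the 3 WT lesions, while the 3 KO lesions held 5405, 3898 and 11398 CPM. The collagens Col1a1 and Col3a1 made up much of this sum. Col1a1 was at 2200 to 2646 CPM in WT and 755 to 3602 CPM in KO lesions, and Col3a1 at 3422 to 6036 CPM in WT and 1151 to 4819 CPM in KO lesions. Single markers differed from this sum. Of the 17, 3 were higher at an unadjusted p under 0.05 and 1 lower, against 6.55% of all tested genes higher and 8.16% lower by the same rule. Without KO replicate 2 these counts were 5 and 0, against 2.64% higher and 4.22% lower of all genes tested without that lesion. With all lesions, the 3 higher ones were Hoxa11 and Hand2, transcription factors of the uterine stroma, and the ligand Wnt5a. Hoxa11 was at 11.7, 12.2 and 17.6 CPM in WT lesions against 39.5, 20.5 and 32.2 CPM in KO lesions. Hand2 stood at 1.95, 2.73 and 2.55 CPM in WT lesions against 5.94, 5.38 and 4.40 CPM in KO lesions. Wnt5a was at 121, 76.6 and 149.6 CPM in WT lesions against 404, 396 and 197 CPM in KO lesions, so that in all 3 genes every KO lesion lay above every WT lesion. The lower one was the ligand Bmp2, at 6.83 to 10.6 CPM in WT and 5.42 to 7.27 CPM in KO lesions. In bulk samples such as these, more cells of a type and more RNA per cell cannot be told apart, nor can fewer cells and less RNA.

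Ghrh encodes growth hormone-releasing hormone. It was at 0, 0.176 and 0.566 CPM in WT replicates 1 to 3 and at 4.94, 7.46 and 1.83 CPM in KO replicates 1 to 3. WT replicate 1 had no count, WT replicate 2 had 8 counts and WT replicate 3 had 28, so the ratio of means of 19.17 rests on few WT counts.

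Ndp encodes norrin, a ligand of a Frizzled receptor. It lay at 0.528, 0.353 and 0.526 CPM in WT lesions against 1.54, 4.79 and 2.13 CPM in KO lesions. Nptx2, a neuronal pentraxin, was at 1.62, 1.81 and 2.18 CPM across the WT lesions, compared with 19.6, 7.21 and 8.15 CPM across the KO lesions. Here KO replicate 1, not KO replicate 2, was the high library. Ptgds encodes a synthase of prostaglandin D2 that is itself secreted, and was at 1.79, 1.23 and 1.21 CPM in the 3 WT lesions, while the 3 KO lesions held 6.01, 4.79 and 4.01 CPM, with the KO lesions within 1.5-fold of each other.

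The BMP pathway, which patterns many tissues, was represented by a ligand and an antagonist. Gdf5, a ligand of this family known from joints, was at 0.690, 0.132 and 0.728 CPM in WT lesions against 5.17, 3.06 and 2.79 CPM in KO lesions, with a ratio of means of 7.11. Chrdl2, a chordin-like protein that binds BMP ligands and limits their action, was at 1.87, 2.95 and 3.98 CPM across the WT lesions, compared with 21.0, 14.1 and 10.3 CPM across the KO lesions, a ratio of 5.16. KO replicate 1 was the highest library for both. Chad, which encodes the cartilage matrix protein chondroadherin, was at 0.974, 0.705 and 0.404 CPM in the 3 WT lesions, while the 3 KO lesions held 4.66, 22.1 and 2.53 CPM, with KO replicate 2 far above the others.

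Most of the BMP and TGF-beta pathway did not pass the test. Of 60 genes of this pathway measured, 54 were tested, 2 were higher at an unadjusted p under 0.05, both of them members, and 4 were lower, against 6.55% of all tested genes higher and 8.16% lower by the same rule. The median log2 fold change of the 54 genes was -0.12, and that of all tested genes was 0.01.

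Receptors formed a further group. Tshr encodes the receptor of thyrotropin and was at 14.7, 12.4 and 7.60 CPM in WT lesions against 34.6, 78.6 and 51.9 CPM in KO lesions, a ratio of means of 4.76. In contrast to most members, KO replicate 1 was its lowest KO lesion. Il17rb, a chain of the receptor of interleukin 25, was at 3.27, 0.309 and 1.54 CPM across the WT lesions, compared with 35.4, 23.1 and 7.19 CPM across the KO lesions. Its spread was wide in both groups, and the gap between KO replicate 3 and WT replicate 1 was 2.20-fold although the means differed 12.9-fold.

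Gpr83, a G protein-coupled receptor known from brain and regulatory T cells, was at 0.0812, 0.0441 and 0.243 CPM in the 3 WT lesions, while the 3 KO lesions held 4.19, 1.88 and 0.784 CPM. H60c encodes a ligand of the activating receptor NKG2D of lymphocytes and was at 2.96, 2.91 and 4.33 CPM in WT lesions against 50.3, 34.6 and 11.2 CPM in KO lesions. For both genes KO replicate 1 held more than 4 times the level of KO replicate 3, which was itself above the WT range. H60c belongs to a family of near-identical genes, so its share of the reads is uncertain.

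Both cellular retinoic acid binding proteins were members. These small proteins carry retinoic acid in the cytoplasm, Crabp2 towards its nuclear receptors. Crabp2 was at 12.0, 5.42 and 9.87 CPM across the WT lesions, compared with 99.9, 90.2 and 31.2 CPM across the KO lesions, with a ratio of means of 8.12 and the second highest level per length of the set (55.8 CPM per kilobase in KO). Crabp1 was at 0.771, 0.220 and 0.566 CPM in the 3 WT lesions, while the 3 KO lesions held 4.47, 2.83 and 1.92 CPM, a ratio of 5.92. The libraries ranked alike in both genes, with KO replicate 1 highest and KO replicate 3 lowest of the KO lesions and WT replicate 2 lowest of all.

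The enzymes that make retinoic acid were not members. Aldh1a1 was at 43.3 to 105 CPM in WT and 67.9 to 91.8 CPM in KO lesions, and Aldh1a2 at 74.6 to 154 CPM in WT and 150 to 256 CPM in KO lesions, so both overlapped between the groups. Cyp26a1, which degrades retinoic acid, was at 0.121 to 0.264 CPM in WT lesions, at 0.175 and 0.305 CPM in KO replicates 1 and 3 and at 17.9 CPM in KO replicate 2.

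The stretches of 250 bases before the starts of Crabp1 and Mme are shown because CpG dinucleotides, here in capitals, are the sites that DNMT3A acts on. The pair was picked because these stretches differ in CpG number, and they stand for no other member. The stretches come from RefSeq on GRCm38.p6, plus strand, at chr9:54764498-54764747 for Crabp1, with 12 CpG dinucleotides, and at chr3:63294961-63295210 for Mme, with 2. The reference held 3 starts for Mme, of which the first listed was used. Methylation was not measured in these libraries.
Crabp1: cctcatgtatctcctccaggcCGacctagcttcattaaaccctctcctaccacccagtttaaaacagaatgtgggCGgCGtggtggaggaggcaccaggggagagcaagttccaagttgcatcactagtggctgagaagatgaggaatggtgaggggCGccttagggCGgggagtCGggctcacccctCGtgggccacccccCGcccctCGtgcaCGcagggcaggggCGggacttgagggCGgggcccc
Mme: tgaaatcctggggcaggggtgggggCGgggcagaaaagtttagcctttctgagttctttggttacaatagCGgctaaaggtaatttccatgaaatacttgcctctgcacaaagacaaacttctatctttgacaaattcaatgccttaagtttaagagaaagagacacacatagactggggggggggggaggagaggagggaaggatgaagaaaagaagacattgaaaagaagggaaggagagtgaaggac
The CpG content of all members could not be compared with that of other genes, since the reference used here held a promoter for 44 of the 65, which is 67.7% and under the 80% needed.

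Channels and their partners included Kcnf1, a modulatory subunit of voltage-gated potassium channels. It was at 2.72, 0.970 and 2.71 CPM in WT lesions against 13.6, 29.0 and 9.76 CPM in KO lesions, with a lowest KO value 3.59 times the highest WT value. Kcnip4, a calcium-binding partner of such channels, was at 0.365, 0.617 and 0.849 CPM across the WT lesions, compared with 3.95, 1.96 and 2.31 CPM across the KO lesions. Pcp4, a small protein that binds calmodulin, was at 1.32, 1.499 and 3.36 CPM in the 3 WT lesions, while the 3 KO lesions held 16.0, 7.82 and 7.58 CPM. For Kcnip4 and Pcp4 KO replicate 1 was the high library. Kctd4, a protein with a channel-like tetramerisation domain, was at 0.467, 0.176 and 1.21 CPM in WT lesions against 10.3, 10.5 and 2.70 CPM in KO lesions.

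Members whose KO lesions were nearly equal were fewer. Myocd encodes myocardin, a coactivator that drives smooth muscle genes, and was at 1.83, 3.24 and 3.68 CPM across the WT lesions, compared with 9.31, 8.42 and 8.63 CPM across the KO lesions, with KO lesions within 1.11-fold of each other (log2 fold change 1.49 ± 0.31, SE, n = 3 per group). The 17 markers of smooth muscle and pericytes, of which Myocd is 1, summed to 5296, 1448 and 3403 CPM in the 3 WT lesions, while the 3 KO lesions held 4294, 2654 and 3955 CPM. Des, which skeletal muscle also expresses, made up 2544 CPM of this sum in WT replicate 1, and without it the sums were 2753, 1344 and 2118 CPM in WT lesions against 3925, 2449 and 3576 CPM in KO lesions. Of these 17 markers, 5 were higher in KO lesions at an unadjusted p under 0.05, namely Myocd itself and the contractile genes Myh11, Cnn1, Actg2 and Lmod1, and 1 was lower, Abcc9, against 6.55% of all tested genes higher and 8.16% lower. Myh11 was at 222, 173 and 228 CPM across the WT lesions, compared with 497, 391 and 414 CPM across the KO lesions. Without KO replicate 2, 5 were higher and none lower, against 2.64% higher and 4.22% lower of all genes tested without that lesion.

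Tmprss6 encodes matriptase-2, a membrane protease known for its control of iron uptake in liver. It was at 5.07, 3.02 and 7.72 CPM in WT lesions against 19.7, 17.8 and 17.5 CPM in KO lesions. St6galnac5, a sialyltransferase, was at 1.20, 1.81 and 1.80 CPM across the WT lesions, compared with 6.78, 6.59 and 5.36 CPM across the KO lesions. Csrnp3, a nuclear protein with transcription activating function, was at 2.03, 1.23 and 4.75 CPM in the 3 WT lesions, while the 3 KO lesions held 13.7, 12.1 and 10.3 CPM. In these 3 genes the spread lay more in the WT than in the KO lesions on a ratio scale.

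Klhdc7a, a protein with kelch repeats, had the smallest ratio of means, 2.67, at 47.6, 44.6 and 32.1 CPM in WT lesions against 102, 133 and 97.2 CPM in KO lesions. Hs3st6, which adds sulfate to heparan sulfate, was at 1.22, 0.617 and 0.930 CPM across the WT lesions, compared with 3.35, 5.17 and 3.11 CPM across the KO lesions. The zinc finger gene Zfp872 was at 0.365, 0.970 and 0.930 CPM in the 3 WT lesions, while the 3 KO lesions held 2.27, 3.04 and 2.07 CPM. C2cd4a, Lrrc75b, Unc93a2, Gm49425, Veph1, 1700086L19Rik and D030007L05Rik made up the rest of the members with KO lesions within 5-fold of each other, and their ratios of means lay between 2.88 and 7.34.

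Foxj1, the transcription factor that switches on the genes of motile cilia, had the largest gap of the set. It was at 2.44, 0.176 and 1.09 CPM in WT replicates 1 to 3 and at 10.5, 70.1 and 11.0 CPM in KO replicates 1 to 3. Even without KO replicate 2, the other KO lesions held more than 4 times the highest WT level. Dnah11, Kif27, Lrrc34 and Gm19935 shared the high value in KO replicate 2 and not the level in the other KO lesions. Dnah11, a heavy chain of the dynein motor of motile cilia, was at 0.0609, 0 and 0 CPM in WT lesions against 0.140, 10.5 and 0.218 CPM in KO lesions, and its WT value came from 3 counts in 1 library. Kif27, a kinesin, was at 0.548, 0.176 and 0.202 CPM across the WT lesions, compared with 1.40, 8.003 and 1.15 CPM across the KO lesions. Lrrc34 was at 0.203, 0.264 and 0.323 CPM in the 3 WT lesions, while the 3 KO lesions held 1.61, 11.0 and 0.784 CPM, and Gm19935, a gene without a known function, stood at 37.5 CPM in KO replicate 2 and at 0.839 and 0.828 CPM in KO replicates 1 and 3.

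With KO replicate 2 left out, the rule kept 43 genes, of which 33 were among the 65 members. The members that dropped out were all 27 without WT counts and, among the 38 detected in WT, Dnah11, Gm19935, Kif27, Lrrc34 and Ndp, whose mean of the other KO lesions lay under 2 CPM.

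The 27 members without a count in WT lesions ranged from 6.13 to 165 CPM in KO replicate 2 (median 10.4). Their summed level was 577 CPM in KO replicate 2, 2.52 CPM in KO replicate 1 and 0.697 CPM in KO replicate 3. Against the floor of 3 counts in the smallest WT library, which is the largest of the WT floors, their level in KO replicate 2 was at least 92.7-fold higher for Fam166b and at least 2503-fold higher for Dcpp3. Of the counts from 1 to 20 over all genes and libraries 89.9% were even, so low counts rose mostly in steps of 2, and this floor and any counting interval are narrower than those of independent molecules.

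**Figure D2:**
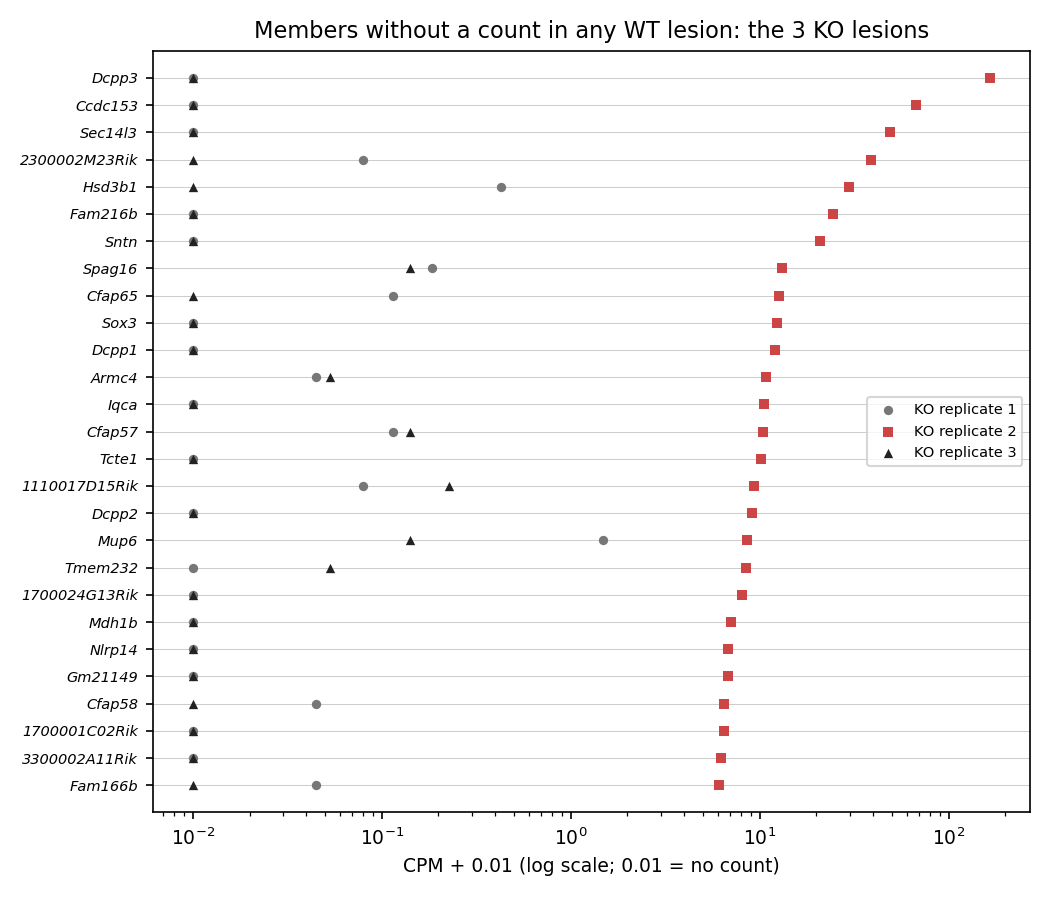
Level of the 27 members without a count in WT lesions in the 3 KO lesions, as CPM plus 0.01 on a log axis, with 1 row for each gene and points at 0.01 for no count. KO replicate 2 (red squares) lies between 6.13 and 165 CPM in every row, and KO replicates 1 and 3 (grey circles and black triangles) lie at or below 1.47 CPM.

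Of the 15 markers of ciliated epithelium, 2 were in this set, Sntn and Cfap65, and the other genes are described by their known roles, which were assigned after the members were known. Sntn encodes sentan, a protein of the tips of motile cilia, and had no count in 5 libraries and 21.0 CPM in KO replicate 2. Ccdc153, another axonemal gene, was at 67.1 CPM in KO replicate 2 and at 0 in all other libraries. Spag16, a component of the central apparatus of the axoneme, was at 0.175, 13.2 and 0.131 CPM in KO replicates 1 to 3. Cfap57, Cfap58 and Cfap65, proteins associated with cilia and flagella, were at 10.4, 6.46 and 12.7 CPM in KO replicate 2 and at 0.131 CPM or less in the other KO lesions.

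Armc4, which helps to dock the outer dynein arms, was at 0.0349, 10.8 and 0.0436 CPM in KO replicates 1 to 3, and the 0.0349 and 0.0436 CPM stood for 2 counts each. Iqca, Tmem232 and Mdh1b, which are known from ciliated or flagellated cells, reached 10.5, 8.44 and 7.04 CPM in KO replicate 2. Tcte1, a protein of the sperm flagellum, was at 10.2 CPM there and at 0 elsewhere.

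The RFX transcription factors that act with FOXJ1 bind the X-box, and an arm of this palindrome-like site is written GTTGCC. The windows of 30 bases around these letters, in capitals, are shown for 7 members picked from those whose promoters held them. They were read from RefSeq on GRCm38.p6 in the direction of the gene: Sntn at chr14:13670798-13670827 (plus strand), Ccdc153 at chr9:44240513-44240542 (plus), Spag16 at chr1:69826855-69826884 (plus), Cfap58 at chr19:47937641-47937670 (plus), Iqca at chr1:90153519-90153548 (minus), Tmem232 at chr17:65510125-65510154 (minus) and Lrrc34 at chr3:30647851-30647880 (minus).
Sntn: tgtcattattcaGTTGCCatggaatgaatg
Ccdc153: ctgagttttccaGTTGCCtggacaacgtgc
Spag16: actaggcaacgcGTTGCCgtagtaactgcg
Cfap58: gggggcgtggcgGTTGCCaggcgaccgaag
Iqca: ccctgccttgcaGTTGCCacggaaacggaa
Tmem232: cagcaatggcagGTTGCCccagaaaccact
Lrrc34: gaagcttctgtgGTTGCCatgggagcgact
The capitals began 66, 152, 103, 59, 100, 85 and 50 bases before the start in the order given. On both strands of the 300 bases around the start, the letters GTTGCC stood in 12.7% of all 27025 RefSeq promoters of this length. No share over the members is set against it, since fewer than 80% of them had a promoter in the reference used here. The matched promoters of 2300002M23Rik, Mdh1b, Gm21149 and 1700001C02Rik also held these letters, and those of Cfap57, Dnah11 and Kif27, for example, did not. Binding of RFX factors was not measured in these libraries.

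Secretory and other genes made up the rest of the set. Dcpp1, Dcpp2 and Dcpp3, which encode secreted proteins of salivary gland and oviduct, were at 12.1, 9.11 and 165 CPM in KO replicate 2 and had no count in any other library. They are neighbouring copies on chromosome 17, so the division of reads among them is uncertain. Sec14l3, a lipid-binding protein of ciliated airway epithelium, was at 48.9 CPM in KO replicate 2 alone. Hsd3b1, which encodes an enzyme of progesterone synthesis, was at 0.419, 29.8 and 0 CPM in KO replicates 1 to 3.

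Sox3, a transcription factor of stem and progenitor cells, was at 12.3 CPM in KO replicate 2 alone. Nlrp14, a gene of oocytes and male germ cells, was at 6.84 CPM in KO replicate 2 alone. Mup6 was the member of this set with the highest level outside KO replicate 2, at 1.47 CPM in KO replicate 1 and 8.59 CPM in KO replicate 2, and it belongs to a cluster of near-identical urinary protein genes. Gm21149 also belongs to a multigene family. The remaining members were 2300002M23Rik, Fam216b, 1110017D15Rik, 1700024G13Rik, 1700001C02Rik, 3300002A11Rik and Fam166b, with 38.8, 24.4, 9.36, 8.04, 6.46, 6.25 and 6.13 CPM in KO replicate 2. 3300002A11Rik is annotated as an antisense gene, and the strand setting of the counting is not given in the sources used here.

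Markers of ciliated and oviduct cells moved with these members. The 15 markers of ciliated epithelium, 3 of which are members (Foxj1, Cfap65 and Sntn), summed to 96.8, 30.2 and 65.4 CPM in WT lesions and to 52.2, 388 and 43.7 CPM in KO replicates 1, 2 and 3. Tppp3 carried most of this sum outside KO replicate 2, at 89.8, 27.0 and 58.0 CPM in WT lesions against 32.0, 61.7 and 26.1 CPM in KO lesions. The other 14 markers summed to 6.98, 3.17 and 7.40 CPM in WT lesions and to 20.1, 326 and 17.6 CPM in KO lesions, and Foxj1, a member, made up 10.5 and 11.0 CPM of the sums in KO replicates 1 and 3. No marker was at 0 in KO replicate 2, while 3 to 5 were at 0 in each of the other libraries. Dnah5, a dynein heavy chain of motile cilia that is no member, was at 67.7 CPM in KO replicate 2 and at 0.479 CPM or less elsewhere. Of 10 ciliated markers tested, 4 were higher in KO lesions at an unadjusted p under 0.05 and none lower, against 6.55% and 8.16% of all tested genes. Foxj1 was among the 4, a call that the rule largely fixes because Foxj1 is a member. Without KO replicate 2, 1 of 10 was higher and none lower, against 2.64% higher and 4.22% lower of the 18925 genes tested without that lesion.

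The 12 markers of ovary and oviduct summed to 97.5, 96.3 and 112 CPM in WT lesions and 90.2, 4403 and 128 CPM in KO replicates 1 to 3. Ovgp1, the oviductal glycoprotein, was at 37.4, 2.56 and 33.7 CPM in WT lesions against 50.3, 4306 and 16.3 CPM in KO lesions. The ovarian markers Inha, Cyp11a1 and Amh were at 23.2, 6.27 and 1.54 CPM in KO replicate 2 while the highest values elsewhere were 1.94 and 0.353 CPM for Inha and Cyp11a1, and Amh had no count elsewhere. KO replicate 2 was the highest library for 9 of the 12 markers and not for Inhba, Star and Foxl2. Inhba was at 48.2, 59.4 and 65.4 CPM in WT lesions against 16.3, 30.1 and 94.0 CPM in KO lesions, so KO replicate 2 lay below every WT lesion. Star was highest in WT replicate 2, at 27.8 CPM, and was at 13.3 CPM in KO replicate 2. Foxl2, a transcription factor of granulosa cells that the uterus also expresses, was at 2.25, 3.13 and 8.03 CPM in WT lesions against 20.5, 15.6 and 8.89 CPM in KO lesions. None of the 12 markers was at 0 in KO replicate 2, against 4 or 5 in each other library. The part of such cells in the levels of the 27 members was not tested.

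**Figure D3:**
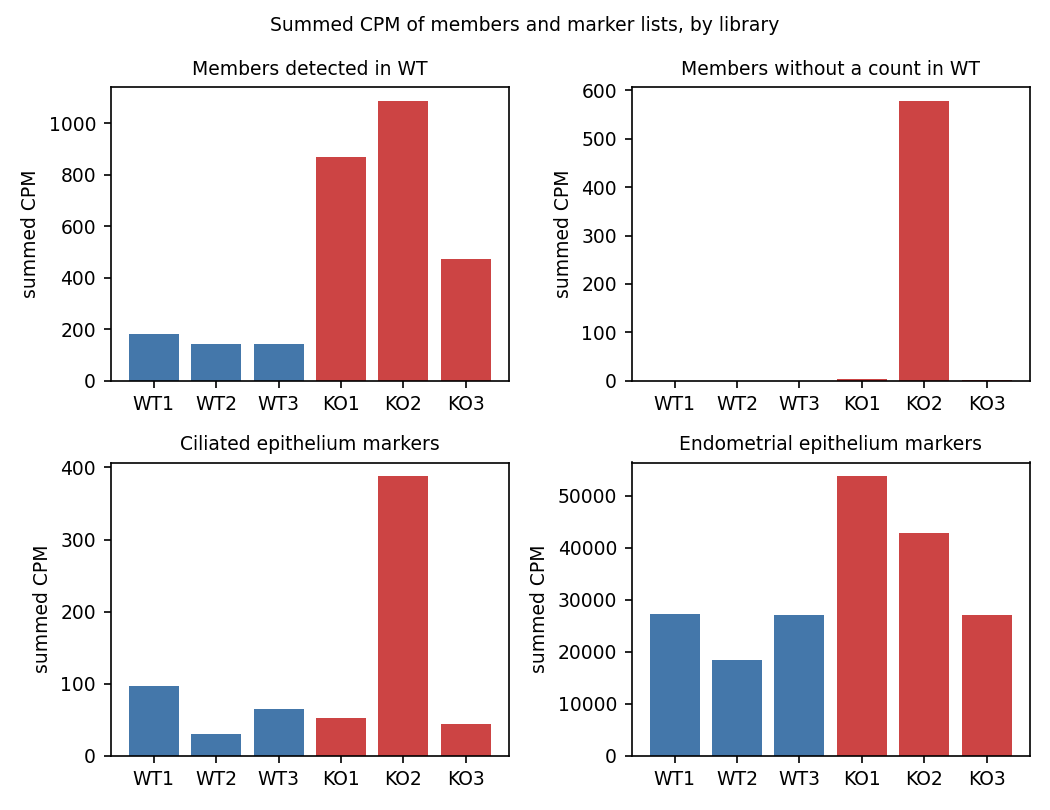
Summed CPM in each of the 6 libraries, on linear axes from 0, of the 38 members detected in WT, the 27 members without a WT count, 15 markers of ciliated epithelium and 20 markers of endometrial epithelium (blue bars, WT; red bars, KO; each bar is 1 library, without an error). The 27 members and the ciliated markers peak in KO replicate 2, at 577 and 388 CPM, while the 38 members are above WT in all 3 KO lesions and the epithelial markers are above WT in KO replicates 1 and 2.

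Markers of endometrial epithelium moved with the first set in part. None of these 20 markers was a member, and they summed to 27284, 18479.9 and 27076 CPM in WT lesions and to 53706, 42849.9 and 27027 CPM in KO replicates 1 to 3. KO replicates 1 and 2, which between them held the maxima of all 38 members, thus also held the highest epithelial marker levels, and KO replicate 3 lay within the WT range. Ltf, which encodes lactoferrin, made up 18119 CPM of the sum in WT replicate 1 and 33433 CPM in KO replicate 1, and the other 19 markers summed to 9165, 8803 and 12379 CPM in WT lesions against 20272, 16109 and 10645 CPM in KO lesions. None of the 20 was higher at an unadjusted p under 0.05 and 1 was lower, against 6.55% and 8.16% of all tested genes, and 17 had a positive log2 fold change. The lower one was the tight junction gene Cldn4, at 66.4, 112 and 104 CPM in WT lesions against 41.0, 27.6 and 75.2 CPM in KO lesions. When the level of each member was divided by the geometric mean of the 20 markers in its library, all 38 members were higher in every KO than in every WT lesion. This is a description that the rule largely fixes, since the divisor ran only from 135 to 301 CPM over the 6 libraries and the members were chosen for a gap of at least 2 in CPM. Of all genes with a mean KO value of at least 2 CPM, 371 (2.70%) were higher in every KO than in every WT lesion after this division. The part of epithelial content in the members' levels was not tested. The gap after division was at least 2-fold for 15 of the 38, and the median ratio of means was 4.00. The smallest gaps were those of Klhdc7a and Zfp872, 1.03 and 1.05, and the largest were those of Gpr83 and Ghrh, both 4.10.

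**Figure D4:**
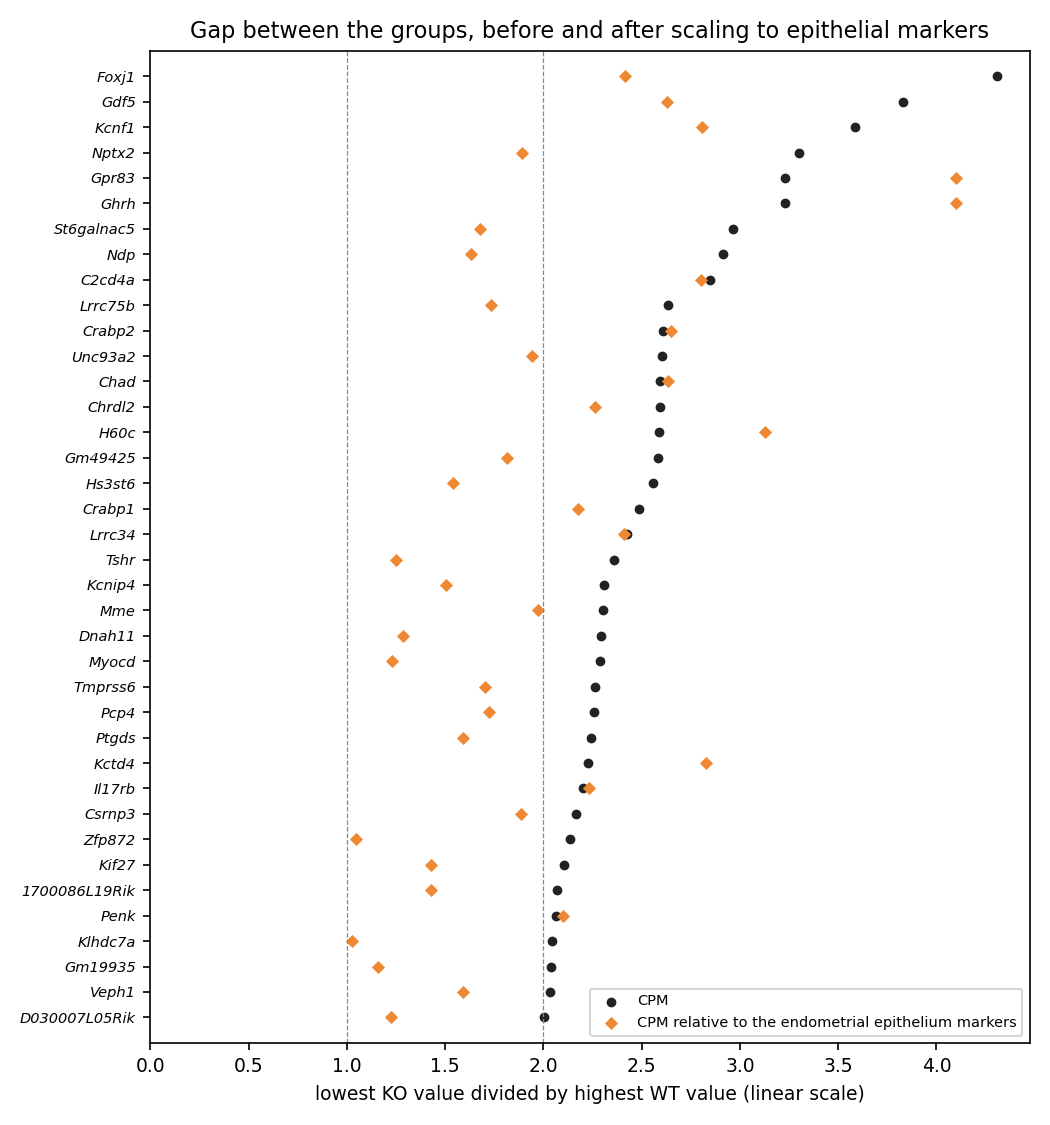
Lowest KO value divided by highest WT value for the 38 members detected in WT, on a linear axis, from CPM (black circles) and after division by the geometric mean of 20 endometrial epithelium markers in each library (orange diamonds). Dashed lines mark 1 and 2. All diamonds lie to the right of 1, from 1.03 for Klhdc7a to 4.10 for Gpr83 and Ghrh, and 15 lie at or beyond 2.

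The genome-wide fit gave the scale of these differences. Of 18177 genes tested with edgeR, 564 (3.10%) were higher in KO lesions at an unadjusted p under 0.05 and a log2 fold change above 1, and none passed an adjusted p of 0.05, while 1190 (6.55%) were higher at an unadjusted p under 0.05 and DESeq2 called 307 higher after adjustment. Of the members, 37 were tested, all from the set detected in WT. All 37 were among the 564, a count that the rule largely fixes, and their adjusted p-values lay between 0.321 and 0.328. None of the 27 members without WT counts passed the filter on low counts, so none of them was tested.

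Other gene lists held few members or none. Hsd3b1 was the 1 member among 39 measured genes of steroid hormone synthesis and metabolism, of which 28 were tested, 4 were higher at an unadjusted p under 0.05 and 2 lower, against 6.55% and 8.16% of all tested genes. No member was found among 51 genes of the germline that DNA methylation is known to silence, of which 12 were tested and none was higher or lower at an unadjusted p under 0.05. Imprinted genes, HOX and other homeobox regulators, Wnt pathway genes, progesterone response genes, estrogen-induced secretory genes, collagens and interferon-induced genes held no member either. Ndp was not on the list used for the Wnt pathway. Members were 0.114% of all genes in the table, a share at which most lists of this size hold none. The lack of members is thus no result about the germline genes or the other lists.

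By annotation, 62 of the 65 members were protein-coding, and the other 3 were a long intergenic non-coding RNA, an antisense RNA and a transcribed pseudogene. The median exonic length was 2323 bases for the members and 3798 bases for the tested genes with a length. Members lay on 19 chromosomes. Chromosome 17 held the most, 8 or 12.3% of the members against 4.88% of the genes with a mean KO value of at least 2 CPM, and 3 of the 8 were the neighbouring Dcpp genes. Chromosome 9, which carries the progesterone receptor locus of the Cre allele, held 5 members or 7.69%, against 5.71% of those genes.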

How the data were processed

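The authors deposited a table of raw, unnormalized counts, whole numbers for 56884 genes in each of the 6 libraries. Per the labels, poly(A)-selected RNA of whole lesions was made into stranded libraries. The submitters' processing notes name Trimmomatic, featureCounts, DESeq2 and GRCm39, and the paper names GRCm38. No coordinates from the counting are printed for this reason, and the only ones printed are those of RefSeq promoter stretches. Symbols, chromosomes, biotypes and exonic lengths were taken from GENCODE M21. Promoters were taken from RefSeq on GRCm38.p6, matched by Ensembl identifier and otherwise by symbol or synonym. The normalized values of the authors were not used here.

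CPM was computed from the deposited counts and the column sums without further scaling, and the rule (2-fold gap, mean KO level of 2 CPM) was applied to all genes. The KO against WT comparison was fitted over 18177 genes kept by filterByExpr with edgeR 4.0.16 (TMM, quasi-likelihood, genotype as the only term) in R 4.3.3, and DESeq2 1.42.0 was an alternative. Totals of 45370342 to 57239184 counts set the precision of single values. Counting error and floors of 3 counts cover counting alone, since reads carry no molecular identifiers. By the numbers in the paper, the lesions of a group came from 3 donors.

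The members and gene lists were chosen with earlier results of these data known. Named are members with a symbol that had the 30 largest gaps or the 15 highest levels, belonged to a list, or encode a transcription or chromatin regulator, secreted ligand, receptor or channel, and the 3 genes on each side of each threshold, 1 of which is not reported here. Others are named to account for every member, and Dnah5, Ovgp1, Inha, Cyp11a1, Amh, Inhba, Star, Foxl2, Tppp3, Ltf, Cldn4, Hoxa11, Hand2, Wnt5a, Bmp2, Col1a1, Col3a1, Des, Myh11, Cnn1, Actg2, Lmod1, Abcc9, Aldh1a3, Cyp26a1, Aldh1a1 and Aldh1a2 were named after their values were seen. The division by epithelial markers (geometric mean of CPM + 1, less 1) was chosen after seeing the data. The scripts were tested on simulated data.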

Additional observations from a re-analysis of the deposited data

How the results depend on the processing

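Scaling the libraries by TMM, DESeq2's size factors or the upper quartile left 54, 55 and 59 members, all among the 65. The limits of the rule moved the count more: 162 genes at a gap of 1.5-fold, 33 at 3-fold, 30 with a mean KO level of 5 CPM and 2595 with no limit on the level. Requiring a count in every KO lesion, which was chosen after seeing the data, left 43 genes, with 140 and 11 at gaps of 1.5-fold and 3-fold, 23 at a level of 5 CPM and 218 with no limit on the level. With each lesion left out in turn the rule kept 43 to 431 genes, or 43 to 408 with a count in every KO lesion. Without KO replicate 3 the counts were 431 and 408, without WT replicate 1 they were 153 and 126, without WT replicate 3 they were 135 and 105, without KO replicate 1 they were 93 and 68, and without KO replicate 2 both were 43. Fewer lesions make the rule easier to meet by its construction, except where a lesion carries the level.

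Genes higher in KO lesions at an unadjusted p under 0.05 and a log2 fold change above 1 numbered 280 (without KO replicate 2) to 1021 (without KO replicate 3). After adjustment DESeq2's Wald test called 307 genes and edgeR 0 to 2 with a lesion left out, the 2 without WT replicate 2. DESeq2 also called Dnmt3a (log2 fold change -0.58, adjusted p = 0.0447). The causes were not tested. The median log2 fold change of the 37 members tested, 2.42, lay between 2.05 and 2.63 under all alternatives. With at least 10 counts required in every library, the median covered 30 of them. All 437 alternative values of single members were positive, which the rule largely fixes.

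Deviations from the group means in lesions with the same replicate number correlated at 0.03, -0.15 and -0.20, so the numbers were not taken to pair the lesions. With the replicate number as a block in the edgeR fit, 372 genes were higher at the unadjusted threshold in place of 564, no gene passed adjustment, and the members' median was 2.31.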

Other observations

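In the opposite direction, 48 genes had no count in any KO lesion and a mean WT level of at least 2 CPM. The highest WT level was in WT replicate 1 for 21 of them, in WT replicate 3 for 21 and in WT replicate 2 for 6, where WT replicates 1 and 3 are the libraries with skeletal muscle genes and WT replicate 3 also held pancreas genes. Aldh1a3, a further enzyme of retinoic acid synthesis, lay in the other direction than the Crabp genes in part, at 4.47, 17.4 and 6.91 CPM in WT replicates 1 to 3 and at 0.943, 1.54 and 5.10 CPM in KO replicates 1 to 3. No explanation of these values was tested.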
